A study of Homo sapiens with 12 samples.

Results

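The CENPA-directed short hairpin RNAs shCENPA1 and shCENPA2 were compared with each other in 22Rv1, a human prostate cancer cell line derived from a xenograft that had relapsed after castration. The comparison uses the RNA-seq runs whose labels carry either hairpin name, 8 of 12 runs, which come from 4 of 6 libraries, 2 of each hairpin. The remaining 2 libraries carry the nontargeting hairpin shNT and give the level from which each hairpin departs. All cells of all 3 groups carried the doxycycline-inducible pTRIPZ vector, brought in by lentivirus and selected with puromycin, and by the methods doxycycline was used at 2 µg/ml, with CENPA knockdown assessed at 72 h. Whether cells were kept as pools or cloned is not given in the sources used here, and no group without a hairpin or without doxycycline was analysed here. The labels number the 4 runs of a group as replicates, but these are 2 libraries that were each run in lanes 7 and 8.

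CENPA is the histone H3 variant that replaces H3 in the nucleosomes of the centromere, where it marks the site at which the kinetochore forms. HJURP, its chaperone, and the MIS18 complex load it after mitosis, and the inner centromere proteins that bind CENPA nucleosomes carry the outer kinetochore that attaches the spindle. A hairpin is processed to a small RNA that leads to breakdown of its target mRNA, and different hairpins against one gene can differ both in how deeply they lower it and in which other mRNAs they meet.

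The lanes of a library were averaged, since their reads differed by a chi-square per gene of 1.24 to 1.31, against 54.9 to 80.1 between the libraries of one CENPA hairpin and 26.5 between the shNT libraries. The CENPA hairpin libraries held 79172294 to 133074655 reads on genes. Values are the deposited log2 RPKM, which corrects reads for gene length and for library size, and the differences below are shCENPA2 minus shCENPA1 on the log2 scale, so a negative value means lower with shCENPA2. Nothing in the labels says that the libraries of one hairpin came from separate cultures, so that p-values measure the spread between these libraries, which may be technical. With 2 libraries on each side the smallest two-sided p of an exact permutation test is 0.33, and each adjusted p therefore relies on limma, which pools information on the spread over the 14624 genes tested. All 9 luminal prostate markers were tested, with a median difference of -0.10 and none passing an adjusted p of 0.05, whereas 0 of 3 basal and 0 of 3 endothelial markers were among the genes analysed. Of the fibroblast markers, 2 of 4 were tested and 0 passed, and of the leukocyte markers 1 of 4 was tested and did not pass. The neuroendocrine markers CHGA and SYP, 2 of 4 on their list, did not pass either, with a median difference of -0.24.

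CENPA itself (chr2:26764289-26801067, GRCh38) was lowest with shCENPA2. Its log2 RPKM was 2.46 and 2.18 with shNT. It was 0.50 and 0.58 in the shCENPA1 and -0.47 and -0.41 in the shCENPA2 libraries, so that all 3 groups stood apart. The mRNA left was 29.1% (SD 3.4 over 4 pairs of libraries) of the shNT level with shCENPA1 and 14.7% (SD 1.7) with shCENPA2. The difference between the hairpins was -0.98 (SE 0.16), an adjusted p of 0.0209, which passes the p threshold and falls just short of the fold threshold of 1. On the log2 scale the change with shCENPA1 was 64.4% of the change with shCENPA2. The difference lay between -1.02 and -0.94 with each of the 4 hairpin libraries left out in turn, but its adjusted p was 0.0908 and 0.212 without shCENPA1 library 1 or 2 and 0.0571 without shCENPA2 library 2.

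Between the hairpins, 107 of 14624 genes were called (0.732% of the genes tested), where a call needs both an adjusted p under 0.05 and a log2 difference larger than 1 in size. Of these, 81 (0.554%) were lower and 26 (0.178%) higher with shCENPA2. Without the fold threshold, 151 genes (1.03%) passed lower and 57 (0.39%) higher, while the median difference over all genes was -0.003 and 50.6% of genes lay below 0. The libraries of one hairpin did not overlap those of the other for any of the 107 called genes, as for 38% of all genes tested. The count depended on the library set. Without shCENPA1 library 1 or 2, 42 and 22 genes were called, of which 27 and 20 were among the 107, and without library 1 the split was 22 lower and 20 higher. Without shCENPA2 library 1 or 2, 224 and 98 genes were called, of which 82 and 72 were among the 107. In all, 14 of the 107 were called without each of these 4 libraries in turn. They are ALB, ALDH1A1, CRABP1, DDIT4L, GATA3, KRT19, NPY, PKP1, SLC17A7, SPINK1, TSPAN8, VIL1, ZBTB18 and ZNF385B.

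**Figure D1:**
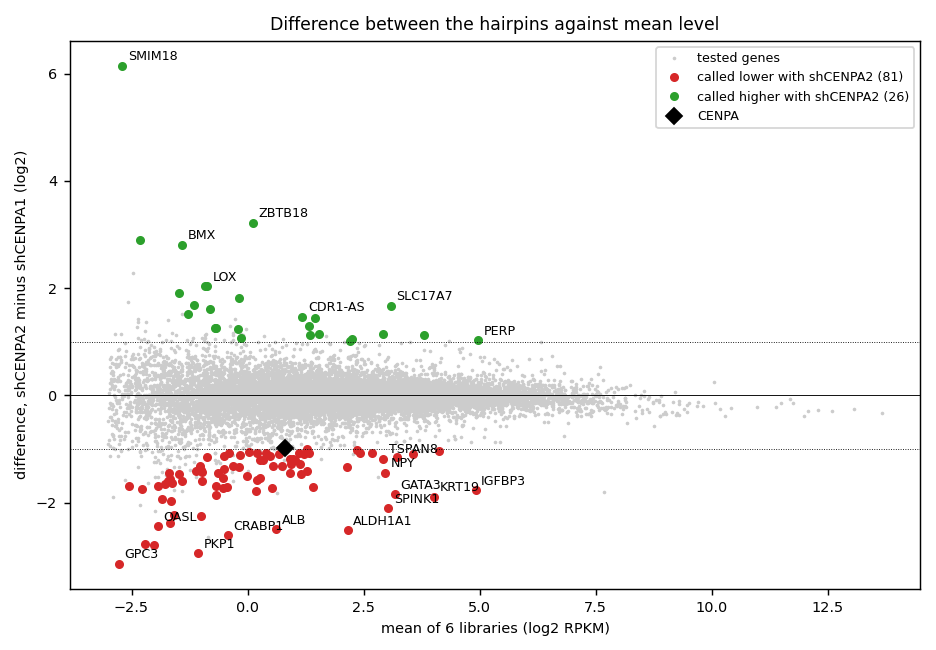
The difference between the hairpins (vertical axis, shCENPA2 minus shCENPA1, log2) is plotted against the mean of 6 libraries (horizontal axis, log2 RPKM) for each gene tested, with the 81 genes called lower in red, the 26 called higher in green and CENPA as a black diamond. Dotted lines mark the fold threshold of 1, and CENPA lies at -0.98, just inside the lower line.

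To ask whether these differences were graded with CENPA or belonged to 1 hairpin, each called gene was placed by the adjusted p (under 0.05) of its change from shNT with each hairpin. Both changes share the shNT libraries, so that the placing describes these libraries and was not tested. A gene changed alike by both hairpins cannot be called between them, so the choice of genes itself favours unlike changes. Of all genes tested, 7.14% passed with shCENPA1 and 18.5% with shCENPA2, and with the fold threshold added 388 (2.65%) and 897 (6.13%) were called. A gene is stepwise where it passed with both hairpins in the same direction and shCENPA2 lay further out. There were 20 such genes (18.7% of the 107), 12 lower and 8 higher. The largest group, 71 genes (66.4%), passed with shCENPA2 alone, 57 of them lower and 14 higher. A further 7 passed with shCENPA1 alone, 3 passed with both but moved further with shCENPA1, 2 moved in opposite directions and 4 passed with neither. Over all genes tested, 12% were placed as shCENPA2 alone and 5.44% as stepwise. Here alone means that the change with the other hairpin did not pass, and not that it was absent. In the group of 71, the median size of the change was 0.29 with shCENPA1 and 1.82 with shCENPA2, and the shCENPA1 mean lay between shNT and shCENPA2 for 48 genes and on the other side of shNT for 23. Over all 107 genes the shCENPA1 mean lay between those of shNT and shCENPA2 for 68 genes (63.6%), against 50.3% of all genes tested.

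**Figure D2:**
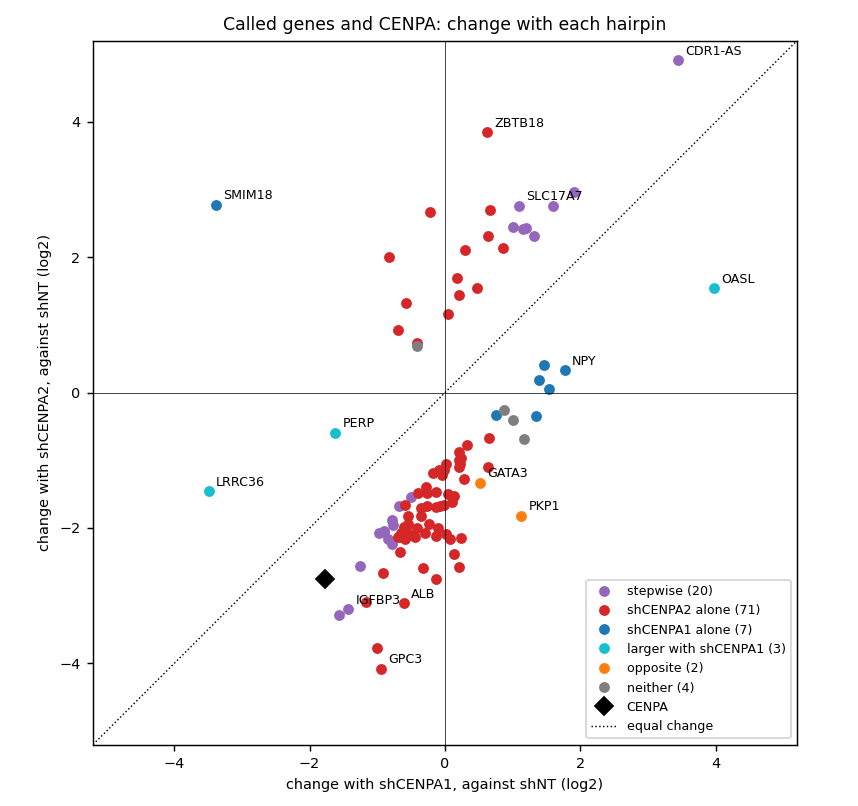
Each point is 1 of the 107 called genes, with its log2 change from shNT with shCENPA1 on the horizontal and with shCENPA2 on the vertical axis, coloured by the group it was placed in. CENPA is the black diamond, the dotted line marks equal change, and the 71 genes placed as shCENPA2 alone (red) have a median size of change of 0.29 on the horizontal axis, against 1.05 for the 20 stepwise genes (purple), with overlap between these groups.

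Of the stepwise genes, IGFBP3, which codes for the main carrier protein of insulin-like growth factors in blood, was the most abundant. IGFBP3 (chr7:45912245-45921874) had a log2 RPKM of 6.53 and 6.38 with shNT, 5.01 and 5.03 with shCENPA1, and 3.57 and 2.93 with shCENPA2. Each hairpin's libraries lay clear of the next group. The level fell with both hairpins, by 1.43 and by 3.20 on the log2 scale, and the difference between the hairpins was -1.77 (SE 0.17, adjusted p = 0.00185, 3.41-fold). SLC17A7 (chr19:49429401-49442360), which codes for a vesicular glutamate transporter, went the other way, with 1.79 and 1.82 with shNT, 2.88 and 2.90 with shCENPA1, and 4.65 and 4.48 with shCENPA2. Again no groups overlapped, and the difference between the hairpins was 1.67 (SE 0.10, adjusted p = 0.000132).

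The other stepwise genes had smaller differences or rested on fewer reads. REG4, a secreted lectin of the gut, fell by 1.57 with shCENPA1 and by 3.28 with shCENPA2, and TSPAN8, a tetraspanin, by 0.77 and by 1.95. DDIT4L, an inhibitor of mTOR signalling, fell by 0.90 and by 2.06. AKR1C3, which makes testosterone from androstenedione, fell by 0.78 and by 2.23, and how reads were shared between it and the related gene AKR1C2 is uncertain. Among the 8 that were higher, CALCA, the gene of calcitonin and CGRP, rose by 1.00 with shCENPA1 and 2.45 with shCENPA2, NDUFA4L2 rose by 1.60 and 2.76, and LAMP3 by 1.31 and 2.32. CDR1-AS, a row named for the transcript antisense to CDR1 that is best known as a circular RNA, rose by 3.44 and 4.91, with 2.23 and 1.45 in the shCENPA1 and 3.18 and 3.43 in the shCENPA2 libraries, and the values cannot tell a circular from a linear form. The calls of IGFBP3, REG4, CDR1-AS, NDUFA4L2 and LAMP3 were lost without either shCENPA1 library, with adjusted p of 0.0502 for CDR1-AS without library 1 to 0.31 for REG4 without library 2. Those of CALCA and AKR1C3 were lost only without shCENPA1 library 2 (adjusted p = 0.0598 and 0.064). Without a shCENPA2 library, the call of REG4 was lost in the absence of library 2 (adjusted p = 0.0661) and it was lost without either shNT library too (0.062 and 0.0646), that of CDR1-AS for either library (0.0555 and 0.151), and those of NDUFA4L2 and LAMP3 only by size, with differences of 0.98 without library 1 and 0.97 without library 2.

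**Figure D3:**
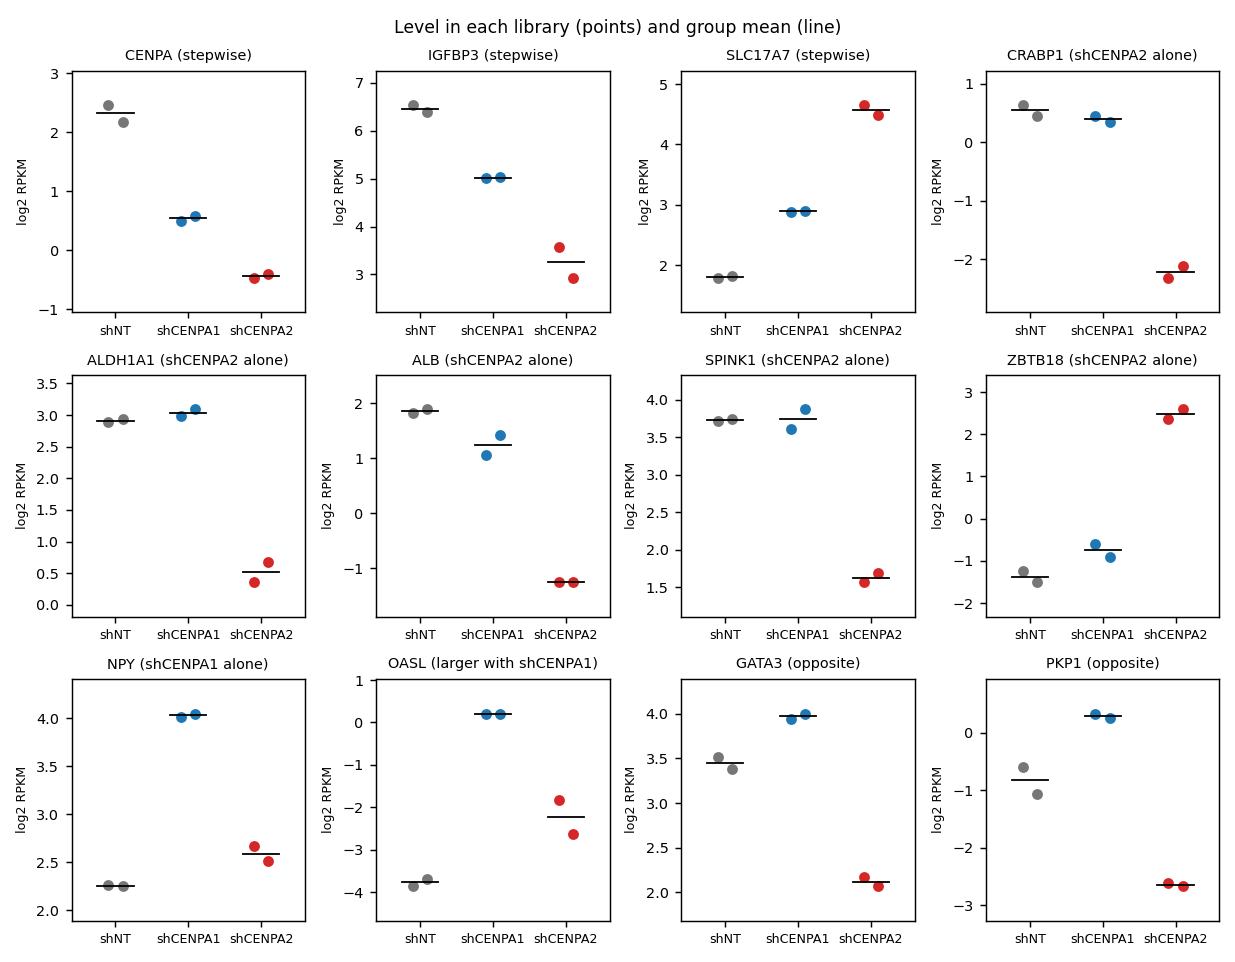
Each panel shows 1 gene, with the log2 RPKM of each library as a point and the group mean as a line, for shNT (grey), shCENPA1 (blue) and shCENPA2 (red). CENPA, IGFBP3 and SLC17A7 step from group to group, CRABP1, ALDH1A1, ALB, SPINK1 and ZBTB18 stand apart with shCENPA2, NPY stands apart with shCENPA1, and GATA3 and PKP1 lie above shNT with one hairpin and below it with the other.

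A graded pattern was also seen below the fold threshold, in the genes of cell division. Of 54 genes on a list of mitosis and cell division, 48 had a difference below 0 and the median was -0.35, beside -0.003 for all genes, but 3 passed an adjusted p of 0.05 (5.56%, against 1.42% of all genes). These 3 were CKS2, TPX2 and CDK1, with differences of -0.49, -0.46 and -0.50. CDK1, the kinase that drives entry into mitosis, had a log2 RPKM of 4.79 and 4.88 with shNT, 3.60 and 3.75 with shCENPA1, and 3.18 and 3.16 with shCENPA2. The list medians relative to shNT were -1.20 and -1.19 in the shCENPA1 libraries and -1.56 and -1.63 in the shCENPA2 libraries, so that no library overlapped. This order was not particular to cell division. It also held for androgen response (-0.37 and -0.49, then -0.66 and -0.64). For cytosolic ribosomal proteins shCENPA2 lay below shCENPA1 too (-0.12 and 0.12, then -0.29 and -0.14). There the shCENPA1 libraries lay on both sides of shNT, so that no step from shNT to shCENPA1 was seen. The order between the hairpins did not hold for cholesterol and fatty acid synthesis (-0.05 and -0.18, then -0.09 and -0.08). For DNA replication and G1/S, 50 of 54 genes lay below 0 with a median of -0.30, and 2 passed, RRM2, a subunit of ribonucleotide reductase (-0.46), and ASF1B, a histone chaperone (-0.57). For homologous recombination and Fanconi repair, 21 of 22 lay below 0 with a median of -0.28, and 0 passed. The 5 genes named here did not pass without shCENPA1 library 1 or 2 or without shCENPA2 library 2, with adjusted p from 0.0736 for CDK1 to 0.293 for ASF1B. CKS2, TPX2 and CDK1 did not pass without any 1 of the 6 libraries (without shCENPA2 library 1, adjusted p = 0.056, 0.0564 and 0.0625), and RRM2 did not pass without shNT library 1 or 2 (0.0948 and 0.0922). Fewer transcripts per cell and fewer dividing cells cannot be told apart in bulk RNA.

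The centromere and kinetochore genes had small differences, most of them below 0. Over all genes tested, 50.6% lay below 0 and 1.42% passed an adjusted p of 0.05. On a list of CENPA deposition and inner centromere genes, from which CENPA itself was left out, 19 of 21 lay below 0 with a median of -0.20. Of the 21, 2 passed (9.52%), CENPW (-0.66, adjusted p = 0.0131) and CENPQ (-0.57, adjusted p = 0.0483). HJURP had 3.34 and 3.37 with shNT, 1.86 and 2.10 with shCENPA1, and 1.71 and 1.59 with shCENPA2, a difference of -0.33 (SE 0.12, adjusted p = 0.289). OIP5, a part of the MIS18 complex, differed by -0.45 (adjusted p = 0.118). CENPC, which binds the CENPA nucleosome directly, passed an adjusted p of 0.05 with neither hairpin, with log2 RPKM between 3.02 and 3.25 in all libraries. For the outer kinetochore and spindle checkpoint, 21 of 24 lay below 0 and the median was -0.22. Here 2 passed (8.33%), NUF2, a part of the NDC80 complex (-0.69), and MAD2L1, a spindle checkpoint protein (-0.68). Without shCENPA1 library 1 or 2 or shCENPA2 library 2, these 4 passing genes did not pass (adjusted p = 0.0589 for CENPW to 0.313 for CENPQ), and CENPQ did not without an shNT library (0.0752 and 0.0745). Over the 897 genes called with shCENPA2 against shNT named above, the median change with shCENPA1 was 64.4% of that with shCENPA2, as for CENPA itself. These genes were chosen on the shCENPA2 libraries and both changes share the shNT libraries, so the share is given as a description. Of the 897, 88 were called between the hairpins and 746 did not pass an adjusted p of 0.05 between them.

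**Figure D4:**
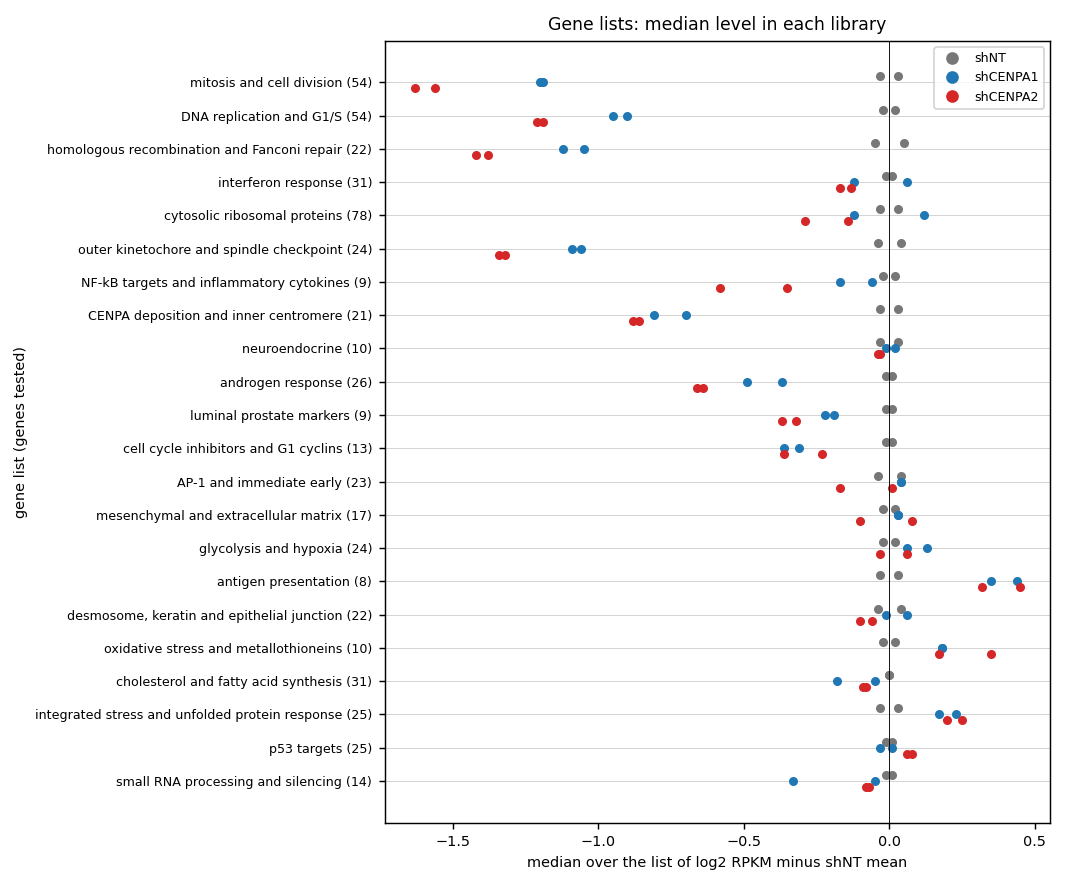
For each gene list with at least 8 genes tested, points give the median over the list of log2 RPKM minus the shNT mean in each library (horizontal axis), for shNT (grey), shCENPA1 (blue) and shCENPA2 (red). In the lists of mitosis, DNA replication, repair and the kinetochore both shCENPA2 libraries lie to the left of both shCENPA1 libraries, for mitosis at -1.56 and -1.63 against -1.20 and -1.19. The same order is seen in other lists, among them androgen response and cytosolic ribosomal proteins.

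Among the genes that passed with shCENPA2 alone, 3 handle retinoids. ALDH1A1 (chr9:72900671-73080442), an enzyme that makes retinoic acid, had a log2 RPKM of 2.89 and 2.93 with shNT, 2.98 and 3.09 with shCENPA1, and 0.36 and 0.68 with shCENPA2. The shCENPA1 libraries stayed just above shNT, whereas the shCENPA2 libraries were far below both, with a difference of -2.52 (SE 0.14, adjusted p = 7.82e-05, 5.72-fold). CRABP1 (chr15:78340353-78348225), a cellular retinoic acid binding protein, had 0.63 and 0.45, then 0.45 and 0.34, and with shCENPA2 -2.32 and -2.11, a difference of -2.61 (SE 0.20, adjusted p = 0.00053). DHRS3, which reduces retinal to retinol, differed by -1.55 (adjusted p = 0.0041), a call that was lost without shCENPA1 library 2 (-1.44, adjusted p = 0.0917). A list of retinoid genes was gathered after these values were seen, so that its counts describe the group and support nothing. Of 13 tested, these 3 passed, where 1.42% of all genes passed. The median of the list was 0.00, and CRABP2, RDH11 and the retinoic acid receptors RARA, RARB and RARG did not pass.

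Several genes best known from liver and gut epithelium were also lower with shCENPA2. ALB (chr4:73397114-73421482), the gene of serum albumin, had a log2 RPKM of 1.83 and 1.89 with shNT, 1.06 and 1.43 with shCENPA1, and -1.25 in both shCENPA2 libraries, a difference of -2.50 (SE 0.18, adjusted p = 0.000289). SPINK1 (chr5:147824572-147831671), a secreted inhibitor of trypsin, had 3.71 and 3.74, then 3.61 and 3.87, and with shCENPA2 1.57 and 1.69, a difference of -2.11 (SE 0.12, adjusted p = 7.82e-05). In SPINK1 the shCENPA1 libraries lay on both sides of shNT, while in ALB they lay below it without passing (change -0.61, adjusted p = 0.0719).

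A list of 52 liver and gut epithelium genes was gathered after the values were seen and in part from the called genes, so that its counts describe the group and support nothing. Of 19 tested, 19 had a difference below 0 and 14 were called lower (0.554% of all genes), 10 with shCENPA2 alone and 4 stepwise. GPC3, a heparan sulfate proteoglycan of fetal liver, differed by -3.14 (adjusted p = 0.00308) but rested on 7 and 8 reads with shCENPA2 against 55 and 65 with shCENPA1, and its call was lost without shCENPA1 library 1 or 2 (adjusted p = 0.0693 and 0.0981). VIL1, the villin of the brush border, differed by -1.08 (adjusted p = 0.00265), and AGR2, a disulfide isomerase of mucus cells, by -1.28 (adjusted p = 0.0044), the latter lost without either shCENPA1 library (adjusted p = 0.059 and 0.0948). The members not called were HNF4G (-0.44, adjusted p = 0.19), MUC13 (-0.72, adjusted p = 0.0118), TFF2 (-0.84, adjusted p = 0.0599), F5 (-0.25, adjusted p = 0.728) and DPP4 (-0.99, adjusted p = 0.353). Against shNT, F5 was higher with both hairpins, by 1.56 with shCENPA1 and 1.31 with shCENPA2. TFF2 was higher by 0.93 with shCENPA1 and near shNT with shCENPA2 (0.09).

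KRT19 and PKP1 are on a list of desmosome, keratin and epithelial junction genes. KRT19 passed with shCENPA2 alone, while PKP1 and GATA3 changed in opposite directions with the hairpins. KRT19 (chr17:41523617-41528308), a keratin of simple epithelia, had 4.84 and 4.60 with shNT, 4.55 and 4.68 with shCENPA1, and 2.90 and 2.54 with shCENPA2, a difference of -1.89 (SE 0.13, adjusted p = 0.000289). Its shCENPA1 libraries overlapped the shNT libraries. PKP1 (chr1:201283452-201332993), plakophilin 1 of the desmosome, had -0.59 and -1.07 with shNT, 0.33 and 0.26 with shCENPA1, and -2.62 and -2.67 with shCENPA2. PKP1 thus rose with shCENPA1 (1.13, adjusted p = 0.0244) and fell with shCENPA2 (by 1.82, adjusted p = 0.000962), and the difference was -2.95 (SE 0.25, adjusted p = 0.000819, 7.71-fold).

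GATA3 (chr10:8045378-8075198), a transcription factor of luminal epithelium, was the other gene with opposite changes. Its log2 RPKM was 3.52 and 3.38 with shNT, 3.94 and 4.00 with shCENPA1, and 2.17 and 2.07 with shCENPA2, and the groups were well apart. The difference was -1.85 (SE 0.10, adjusted p = 7.82e-05), with a rise of 0.52 (adjusted p = 0.0154) and a fall of 1.33 (adjusted p = 4e-05). GATA3-AS1, which lies on the opposite strand (chr10:8050450-8053484), differed by -2.38 (adjusted p = 0.0228) on 108 and 149 reads with shCENPA1 against 35 and 23 with shCENPA2. The call of GATA3-AS1 was lost without shCENPA1 library 1 or 2 (adjusted p = 0.129 and 0.313). The kit keeps the strand, but whether counting used it is not given in the sources used here, so reads of the 2 genes may not be fully separate. Over the whole junction list, 12 of 22 genes lay below 0, the median was -0.01, and PERP was the 1 gene that passed higher, beside KRT19 and PKP1 lower.

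Of the 14 genes that were higher and passed with shCENPA2 alone, ZBTB18 changed most. ZBTB18 (chr1:244048547-244057476), a zinc finger repressor of transcription in the nervous system and muscle, had a log2 RPKM of -1.24 and -1.50 with shNT, -0.60 and -0.90 with shCENPA1, and 2.36 and 2.59 with shCENPA2. Its reads were 207 and 216 with shCENPA1 against 1653 and 3153 with shCENPA2, a difference of 3.22 (SE 0.20, adjusted p = 0.000132, 9.33-fold). LOX, which crosslinks collagen and elastin, had -1.10 and -1.54 with shCENPA1 and 0.63 and 0.79 with shCENPA2, a difference of 2.03 (adjusted p = 0.00427). BMX, a nonreceptor tyrosine kinase, differed by 2.81 (adjusted p = 0.00186), SLFN5, a Schlafen family gene, by 1.82 (adjusted p = 0.00566), and IGF1R, the receptor of insulin-like growth factor 1, by 1.12 (adjusted p = 0.00606). Without shCENPA1 library 2 the calls of LOX, BMX, SLFN5 and IGF1R were lost, with adjusted p of 0.0833, 0.0598, 0.101 and 0.0877. On the list of mesenchymal and extracellular matrix genes, LOX was the 1 of 17 that was called higher, CTGF, a matricellular protein, the 1 called lower (-1.41, adjusted p = 0.00571, lost without shCENPA1 library 1 or 2 with adjusted p of 0.0736 and 0.134), and the median was -0.04.

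The 7 genes that passed with shCENPA1 alone were led in level by NPY. NPY (chr7:24284188-24291862), the gene of neuropeptide Y, had a log2 RPKM of 2.26 and 2.25 with shNT, 4.01 and 4.05 with shCENPA1, and 2.67 and 2.51 with shCENPA2. The shCENPA2 libraries lay just above shNT and far below shCENPA1, with a difference of -1.44 (SE 0.10, adjusted p = 0.000289). QPCT, glutaminyl cyclase, differed by -1.20 (adjusted p = 0.00993) and FST, the activin-binding follistatin, by -1.70 (adjusted p = 0.0217), each lost without shCENPA1 library 1 (adjusted p = 0.0761 and 0.0881) or 2 (0.154 and 0.303), and FST also without shCENPA2 library 2 (0.055). SMIM18 (difference 6.15, adjusted p = 0.00993) had 0 and 5 reads with shCENPA1, 16 and 17 with shNT, and 74 and 202 with shCENPA2. The size of the SMIM18 difference depends on the constant added before the logarithm, and its call was lost without shCENPA2 library 2 (adjusted p = 0.0883).

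The 3 genes that moved further with shCENPA1 were OASL, PERP and LRRC36, a gene with leucine-rich repeats (difference 2.03, adjusted p = 0.0041, lost without shCENPA1 library 1 or 2 with adjusted p of 0.059 and 0.0786). PERP, a junction protein and target of p53, had 5.71 and 5.68 with shNT, 4.02 and 4.13 with shCENPA1, and 5.04 and 5.18 with shCENPA2, so that it fell by 1.62 and by 0.59, and the difference was 1.03 (SE 0.09, adjusted p = 0.00117). Without shCENPA1 library 1 or shCENPA2 library 2 the PERP difference was 0.98 and 0.96, under the fold threshold with adjusted p of 0.0335 and 0.012. SCD, the desaturase that makes monounsaturated fatty acids, was the 1 of 31 cholesterol and fatty acid synthesis genes that passed an adjusted p of 0.05, below the fold threshold, with 7.47 and 7.46 with shNT, 5.08 and 4.94 with shCENPA1, and 5.71 and 5.65 with shCENPA2 (difference 0.67, adjusted p = 0.00809). The SCD level was thus lower with the hairpin that lowered CENPA less, and without shCENPA1 library 2 SCD did not pass (adjusted p = 0.0967).

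OASL is on a list of interferon response genes, of which 3 of 31 tested were called, all lower with shCENPA2, where 0.554% of all genes were called lower. OASL (chr12:121017763-121039246), which acts against viral replication, had a log2 RPKM of -3.86 and -3.68 with shNT, 0.21 in both shCENPA1 libraries, and -1.82 and -2.63 with shCENPA2, a difference of -2.44 (SE 0.33, adjusted p = 0.00809). It rests on 328 and 420 reads with shCENPA1 and 83 and 76 with shCENPA2. DDX60, a helicase induced by interferon, had -1.04 and -1.01, then 0.49 and 0.41, and -0.52 and -0.71 with shCENPA2, a difference of -1.07 (SE 0.19, adjusted p = 0.0332). IFITM2, a membrane protein that limits virus entry, fell with shCENPA2 alone, with 3.69 and 3.88 with shCENPA1 and 2.63 and 2.75 with shCENPA2, a difference of -1.09 (SE 0.11, adjusted p = 0.0018). Its near-identical neighbour IFITM3 differed by -0.51 (adjusted p = 0.115), so that how reads were shared between the 2 is uncertain. Over the list 24 of 31 lay below 0 and the median was -0.27, while its library medians against shNT were 0.06 and -0.12 with shCENPA1 and -0.13 and -0.17 with shCENPA2. The calls of OASL and DDX60 were lost without shCENPA1 library 1 (adjusted p = 0.101 and 0.125) or 2 (0.197 and 0.247), that of DDX60 also without shCENPA2 library 2 (0.0951), and that of IFITM2 by size without shCENPA1 library 2 (adjusted p = 0.0459).

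RefSeq promoters (GRCh38.p14), 250 bases before to 50 after the start of each gene, matched 72 of the 107 called genes, 57 lower and 15 higher. The core of the interferon-stimulated response element, GAAA, any 2 bases and GAAA, searched on both strands with no mismatch, occurred in 997 of 27305 promoters (3.65%), in 4 of the 57 lower and 1 of the 15 higher called genes. The 4 were ABCC2, DDX60, PHLDB2 and TSPAN8. OASL and IFITM2, the other called genes on the interferon list, were not among them, for want of either a promoter entry or a match. DDX60 held the core at 2 places. The 120 bases before its start (chr4:168318753-168318872, minus strand, GRCh38.p14) are shown with both matches in capitals, which begin 88 and 53 bases before the start (positions -88 and -53). A match describes the letters of this window and is not shown to be a bound site.
DDX60: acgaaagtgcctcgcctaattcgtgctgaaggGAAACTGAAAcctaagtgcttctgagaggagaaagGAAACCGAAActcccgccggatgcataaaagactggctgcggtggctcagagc

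**Figure D5:**
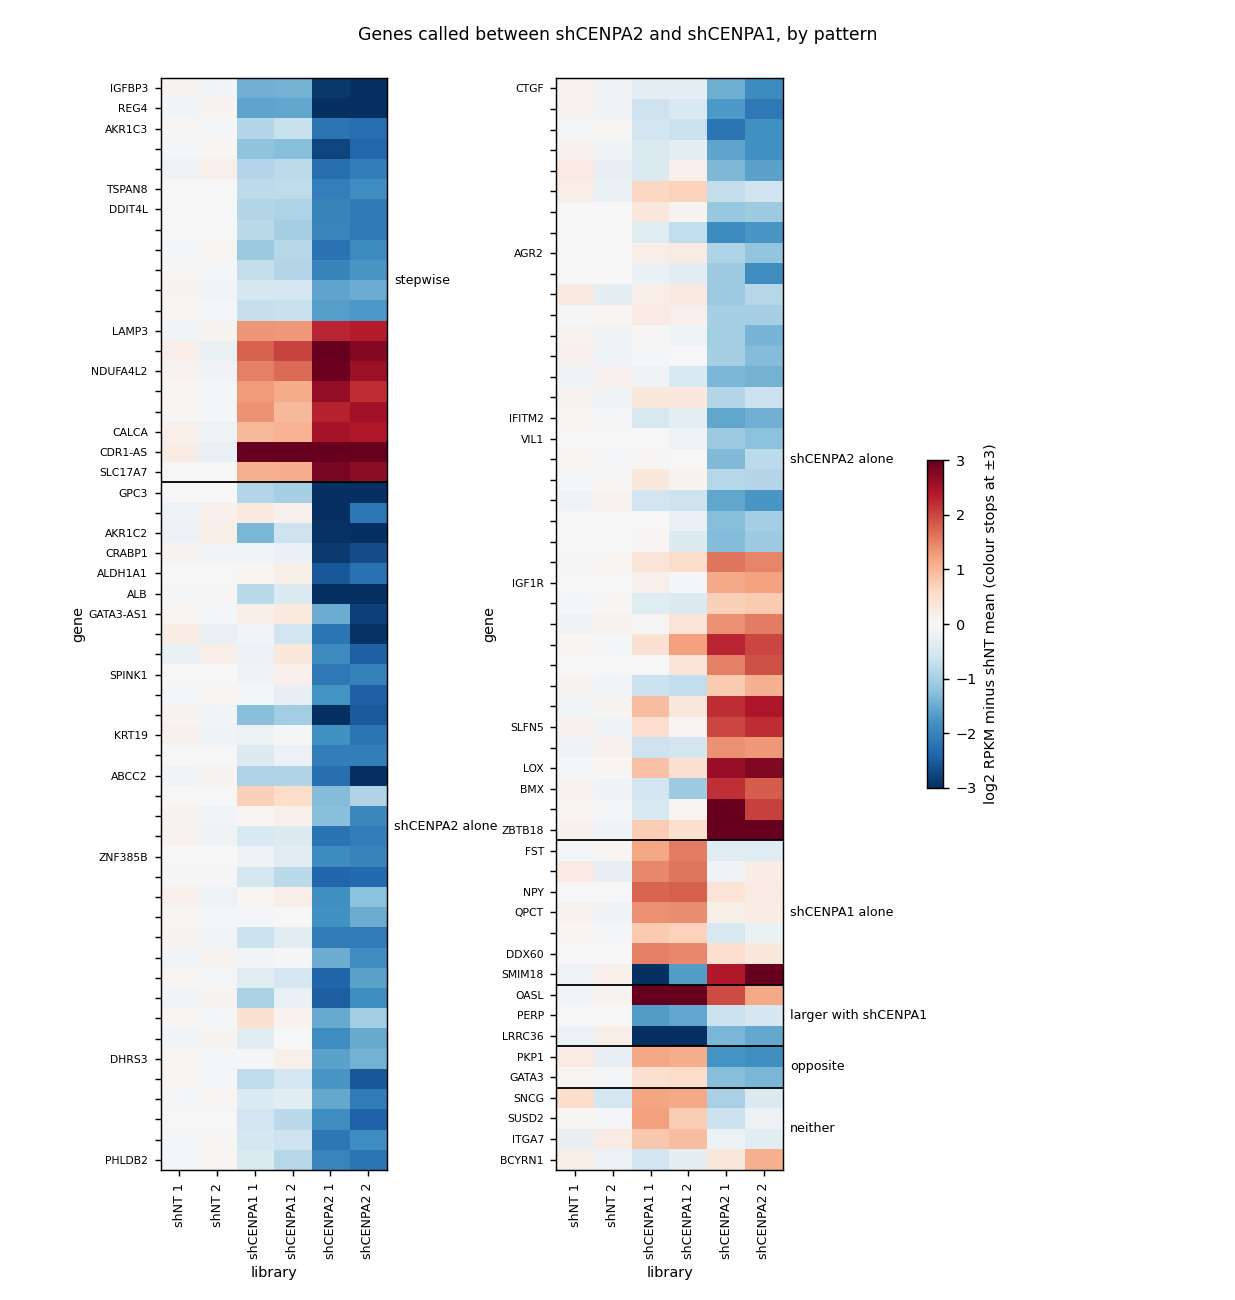
Colour gives log2 RPKM minus the shNT mean for each of the 107 called genes (vertical) in each of the 6 libraries (horizontal), with the groups they were placed in named at the right of each panel and labels for genes that the text names. With shCENPA1 the median size of change is 1.05 for the 20 stepwise genes and 0.29 for the 71 genes placed as shCENPA2 alone. These groups overlap. For 17 of the 71 the shCENPA1 change is 25 to 50% of the shCENPA2 change, and BRINP1 changed by -1.16 with shCENPA1. Colours stop at ±3.

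Of 26 androgen response genes tested, 5 passed an adjusted p of 0.05, all lower with shCENPA2 (19.2%, beside 1.03% of all genes) and all by less than the fold threshold. In the list 20 lay below 0 and the median was -0.14. TMPRSS2, a membrane serine protease, had a log2 RPKM of 1.99 and 1.92 with shNT, 2.09 and 2.19 with shCENPA1, and 1.28 and 1.04 with shCENPA2, a difference of -0.98 (SE 0.13, adjusted p = 0.00878). ELL2, an elongation factor, differed by -0.88 (adjusted p = 0.00345). PMEPA1, STEAP1 and FKBP5, a cochaperone of steroid receptors, were stepwise, with differences of -0.65, -0.58 and -0.56. KLK3, the gene of prostate-specific antigen, had -1.41 and -1.09 with shCENPA1 and -2.17 and -2.07 with shCENPA2, a difference of -0.87 (SE 0.24) that did not pass (adjusted p = 0.147). Without shCENPA1 library 1 or 2, TMPRSS2 and PMEPA1 did not pass, with differences of -1.03 and -0.93 for TMPRSS2 and -0.66 and -0.64 for PMEPA1. The ELL2 difference lay between -0.94 and -0.82 with each library left out in turn. STEAP1 and FKBP5 were not checked in this way.

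In the remaining lists few genes passed, beside 1.42% of all genes tested. MYC, a transcription factor of growth, was the 1 of 23 immediate early genes that passed, with 4.86 and 4.79 with shNT, 4.46 and 4.50 with shCENPA1, and 3.71 and 3.58 with shCENPA2, a difference of -0.84 (SE 0.09, adjusted p = 0.0027). GDF15, a secreted stress factor, was the 1 of 25 p53 targets that passed, with 5.21 and 5.23 with shCENPA1 and 6.04 and 5.82 with shCENPA2, a difference of 0.71 (adjusted p = 0.0142), and CDKN1A, the inhibitor p21, differed by 0.25 (adjusted p = 0.374). SYT1, a calcium sensor of synaptic vesicles, was the 1 of 10 neuroendocrine genes that passed (0.84, adjusted p = 0.0342). Of 78 genes for cytosolic ribosomal proteins, 72 lay below 0 with a median of -0.23, and 0 passed. The ribosomal medians against shNT were -0.12 and 0.12 in the shCENPA1 libraries and -0.29 and -0.14 in the shCENPA2 libraries, so that the spread within shCENPA1 was as large as the difference. Without shCENPA1 library 2, MYC, GDF15 and SYT1 did not pass (adjusted p = 0.0626, 0.186 and 0.303), nor did GDF15 and SYT1 without shCENPA1 library 1 (0.103 and 0.0873), nor SYT1 without shCENPA2 library 2 (0.14). No gene passed on the lists of antigen presentation, glycolysis and hypoxia, the integrated stress and unfolded protein response, oxidative stress and metallothioneins, NF-kB targets, cell cycle inhibitors and G1 cyclins, the epithelial sodium channel, or small RNA processing and silencing, whose medians lay between -0.21 and 0.13.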

How the data were processed

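The authors sequenced stranded mRNA libraries, trimmed reads with Trim Galore, aligned to hg38 with STAR, counted with HTSeq and tested with edgeR (versions not given in the sources used here) and deposited log2 RPKM per run for 14828 genes. From the deposited log2 values, the lanes of a library were averaged and limma 3.58.1 (lmFit, contrasts, trended eBayes; R 4.3.3) was run on genes whose mean was -3 or above, with 6 libraries in one fit, no covariate and Benjamini-Hochberg adjustment over the 14624 genes tested. The spacing of low values gave back whole reads for all 14828 genes (100%), within 3.5e-08 of a whole read, with a constant of 0.25 reads on average. That constant draws folds of weak genes towards 0. At these depths the number of libraries, more than counting error, sets the precision. Simulated data were used to test the fit.

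The libraries, gene lists and rules were chosen with earlier results of these data known. Genes named are CENPA, 4 housekeeping genes (ACTB, GAPDH, TBP and HPRT1, of which none passed between the hairpins), called genes on a list, the 12 lower and 12 higher called genes with the largest difference among those with a group mean of at least 0 and no overlap, the 4 largest of each pattern, up to 3 genes per list with the smallest p, and PKP1. Others, such as VIL1, AGR2, DHRS3, DDIT4L, TSPAN8, AKR1C3, GATA3-AS1, NDUFA4L2, LAMP3, QPCT, IGF1R, HJURP, OIP5, CENPC, STEAP1 and FKBP5, were chosen after their values were seen, and some genes counted in the lists are not reported here by name. Gene positions are from GENCODE 44 on GRCh38, which matched 12955 symbols (87.4%).

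Alternatives were single lanes, lanes as replicates, a replicate block, other filters, constants of 0.1 and 1, median-centred and quantile-normalized libraries, no trend, only the CENPA hairpins in the fit, limma voom on recovered reads, a GC and length correction, stricter thresholds, and each library left out. A crossed block was added after seeing the data.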

Additional observations from a re-analysis of the deposited data

Results flagged for a closer look

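The 107 genes called between shCENPA2 and shCENPA1 stand out because they differ between hairpins that were made against the same mRNA, by limma's test of that difference itself. For 2 of them the changes from shNT passed in opposite directions. PKP1 differed by -2.95 (adjusted p = 0.000819), higher than shNT in both shCENPA1 libraries and lower in both shCENPA2 libraries. GATA3 differed by -1.85 (adjusted p = 7.82e-05), with the same order in its 4 hairpin libraries. CENPA moved with both, and its part in these differences was not tested.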

How the results depend on the processing

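None of the 107 called genes changed sign under any alternative. Their hairpin libraries did not overlap, so leaving out a library could not change the sign, and most other alternatives reuse the same ordered values. Of the 107, 10 were called in every alternative that tested them. The number called between shCENPA2 and shCENPA1 was 230 with both lanes as separate replicates, 170 with a crossed replicate block (added after seeing the data), 53 with a filter at a mean log2 RPKM of 0, 17 with 1 added to the RPKM, 53 at an adjusted p under 0.01 and 48 with a log2 fold beyond 1.5. It ranged from 22 to 224 with each library left out in turn, where a lone library is assumed to vary like the other groups. The CENPA difference kept its direction but did not pass with 1 added to the RPKM (-0.50, adjusted p = 0.0606) or with voom on recovered reads (-0.95, adjusted p = 0.0981), and ranged from -1.02 to -0.94 with a library left out. The share of called genes placed as shCENPA2 alone was 43.0% with lanes as replicates and 41.2% with 1 added to the RPKM, beside 66.4%. The share called lower was 58.8% with 1 added to the RPKM, beside 75.7%, and without shCENPA1 library 1 the split was 22 lower and 20 higher. For small RNA processing genes the list median turned from 0.13 to -0.01 without shCENPA1 library 2, in a range of -0.01 to 0.26 over the libraries left out. The cause of these shifts was not tested.

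Same-numbered libraries did not deviate together (correlations of -0.06, -0.10 and -0.15), so that no shift shared by number was seen. With 2 libraries per group this cannot settle whether the samples are paired. The replicate block gave 95 calls, 91 of them among the 107. Voom on the recovered reads called 114. Precision is limited by 2 libraries per hairpin, and genes with few reads, such as GPC3 and SMIM18, are limited by depth too.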

Other observations

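The insulin-like growth factor axis, gathered as a list after the values were seen, held 1 gene called lower and 1 called higher among 9 tested. IGFBP3 fell with both hairpins, and IGF1R had a log2 RPKM of 1.10 and 0.87 with shCENPA1 and 2.07 and 2.14 with shCENPA2, where shNT had 0.94 in both libraries. IGFBP5, another binding protein, was lower than shNT with both hairpins by nearly the same amount, with changes of -2.18 and -2.19 and a difference between the hairpins of -0.02 (adjusted p = 0.99). IGF2R, INSR, IRS1 and IGFBP2 had differences of 0.03, -0.10, 0.00 and -0.06, and none passed, nor did IGF2 (-0.09) and IRS2 (-0.40, adjusted p = 0.106).

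Median differences between the hairpins lay between -0.026 and 0.019 for every chromosome, over genes placed by GENCODE 44, which hold 99 of the 107 called genes.

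SNCG, SUSD2, ITGA7 and BCYRN1 were called between the hairpins although neither hairpin's change from shNT passed. SNCG, gamma-synuclein, had a log2 RPKM of -0.31 and -1.38 with shNT, 0.35 and 0.29 with shCENPA1, and -1.81 and -1.27 with shCENPA2 (difference -1.86, adjusted p = 0.0352). These calls were lost without shCENPA1 library 1 or 2, with adjusted p of 0.131 to 0.379 over the 4 genes. They were also lost without shCENPA2 library 1 or 2 for SNCG (0.0951 and 0.078), SUSD2 (0.078 and 0.05) and ITGA7 (0.0592 and 0.145), and without shCENPA2 library 2 for BCYRN1 (0.13). BCYRN1 is a small RNA with many related copies in the genome, so that its reads are uncertain.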
